A study of Mus musculus with 9 samples.

Results

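The genes described here are those of the insulin-like growth factor (IGF) family chosen by gene symbol: the ligands Igf1 and Igf2, the receptors Igf1r and Igf2r, and the binding proteins Igfbp2, Igfbp3, Igfbp4, Igfbp5 and Igfbp7. They are 9 of the 47593 genes in the deposited count table, and all 9 passed the filter on low counts that left 18356 genes for testing. RNA-seq was done on 9 whole mouse medulloblastomas, tumours of the cerebellum, on a C57BL/6J background. Every tumour carried the Cre transgene B6.Cg-Tg(Atoh1-cre)1Bfri/J and the Smoothened allele GT(ROSA)26Sortm1(Smo/EYFP)Amc/J, so that Cre made in Math1 (Atoh1) expressing cells switched on constitutively active Smoothened, the signal transducer of the Hedgehog pathway. By genotype label 3 tumours were Cdk6+/+ and 6 were Cdk6-/-, Cdk6 being a cyclin D dependent kinase of the G1 phase. The labels give no age, and they do not say which cells lack Cdk6. The question of the series is how tumours without the gene differ from tumours with it. RNA came from whole tissue, so fewer cells of a type and less RNA per cell cannot be told apart in any value below.

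IGF1 and IGF2 are secreted growth factors that bind the receptor tyrosine kinase IGF1R, which signals through insulin receptor substrates to the PI3K, AKT and mTOR pathway and to RAS and ERK. IGF2R, also the receptor for mannose 6-phosphate, carries IGF2 into lysosomes and so lowers its amount outside the cell. The binding proteins hold IGFs in the extracellular space, where proteases release them, and IGFBP7 binds IGFs only weakly. In mice, Igf2 is needed for Hedgehog-driven medulloblastoma to form, and IGF signalling supports the proliferation of granule neuron progenitors, the cells from which these tumours grow.

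Deposited counts summed to between 39.4 and 56.8 x 1e6 in the Cdk6+/+ libraries and between 21.4 and 34.5 x 1e6 in the Cdk6-/- libraries. The lowest count of any member in any library was 124. Cdk6 itself was at 551 to 562 counts per 1e6 (CPM, here and below per 1e6 counts of the TMM-scaled library) in the Cdk6+/+ tumours and at 214, 562, 270, 464, 2.17 and 351 CPM in Cdk6-/- tumours 1 to 6. The counts cover all its exons and the deleted part is not named in the labels, so they do not check the genotype. Cdk6-/- tumours 1 and 5 stood apart from the others. A list of 6 mature granule neuron markers summed to 3842 and 4326 CPM there, against 187 to 497 CPM in the other 4 and 342 to 602 CPM in the Cdk6+/+ tumours. In tumour 5 the list of 8 granule neuron progenitor and proliferation markers was also low, 895 CPM against 4051 to 6628 CPM in the other 5. Zic1, which was at 773 CPM or more in every Cdk6-/- tumour, made up most of these 895 CPM. Atoh1 and the proliferation marker Mki67, of the same list, were at only 0.0442 and 0.398 CPM in tumour 5. Xist, transcribed from the inactive X chromosome, was at 1583 CPM or more in the Cdk6+/+ libraries and in Cdk6-/- tumour 6. It was at 131 CPM in Cdk6-/- tumour 1 and at 0.354 to 0.958 CPM in Cdk6-/- tumours 2 to 5. Ddx3y, a Y-linked gene, was at 57.6 to 145 CPM in Cdk6-/- tumours 2 to 5. It was at 0.160 CPM in Cdk6-/- tumour 1 and at 0 CPM in tumour 6 and the Cdk6+/+ libraries. Both measures and the genotype labels were thus partly confounded. The tumours are separate samples by their labels, which do not say that each came from its own animal. P-values therefore measure the spread between these samples, which may in part be technical.

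Of the 9 genes, Igfbp7 was the only gene that passed edgeR's quasi-likelihood test over all libraries, and it was higher in the Cdk6-/- tumours. In 4 genes the 2 groups did not overlap. Igf1r, Igfbp5 and Igfbp7 were higher in every Cdk6-/- tumour than in any Cdk6+/+ tumour, and Igf1 was lower in every Cdk6-/- tumour. Igf2, Igf2r and Igfbp2 instead differed most among the Cdk6-/- tumours themselves. Of all tested genes, 5.19% were called (2.76% higher and 2.43% lower in Cdk6-/-), so a single called gene among 9 says little about the family as a group. Groups did not overlap in 15.5% of all tested genes, 7.56% with Cdk6-/- higher and 7.98% with it lower, beside 4 of the 9 here. An unadjusted p under 0.05 was reached by 4 of the 9 and by 19.3% of all tested genes. The log2 fold change (Cdk6-/- minus Cdk6+/+) was positive in 8 of the 9, with a median of 0.76, and in 59.9% of all tested genes, with a median of 0.16. The authors' deposited DESeq2 table lists 761 genes, all at an adjusted p under 0.05, and none of the 9 is among them. DESeq2 as run here on the deposited counts called 2309 genes, Igfbp5 and Igfbp7 among them. The reason for this difference was not tested.

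**Figure D1:**
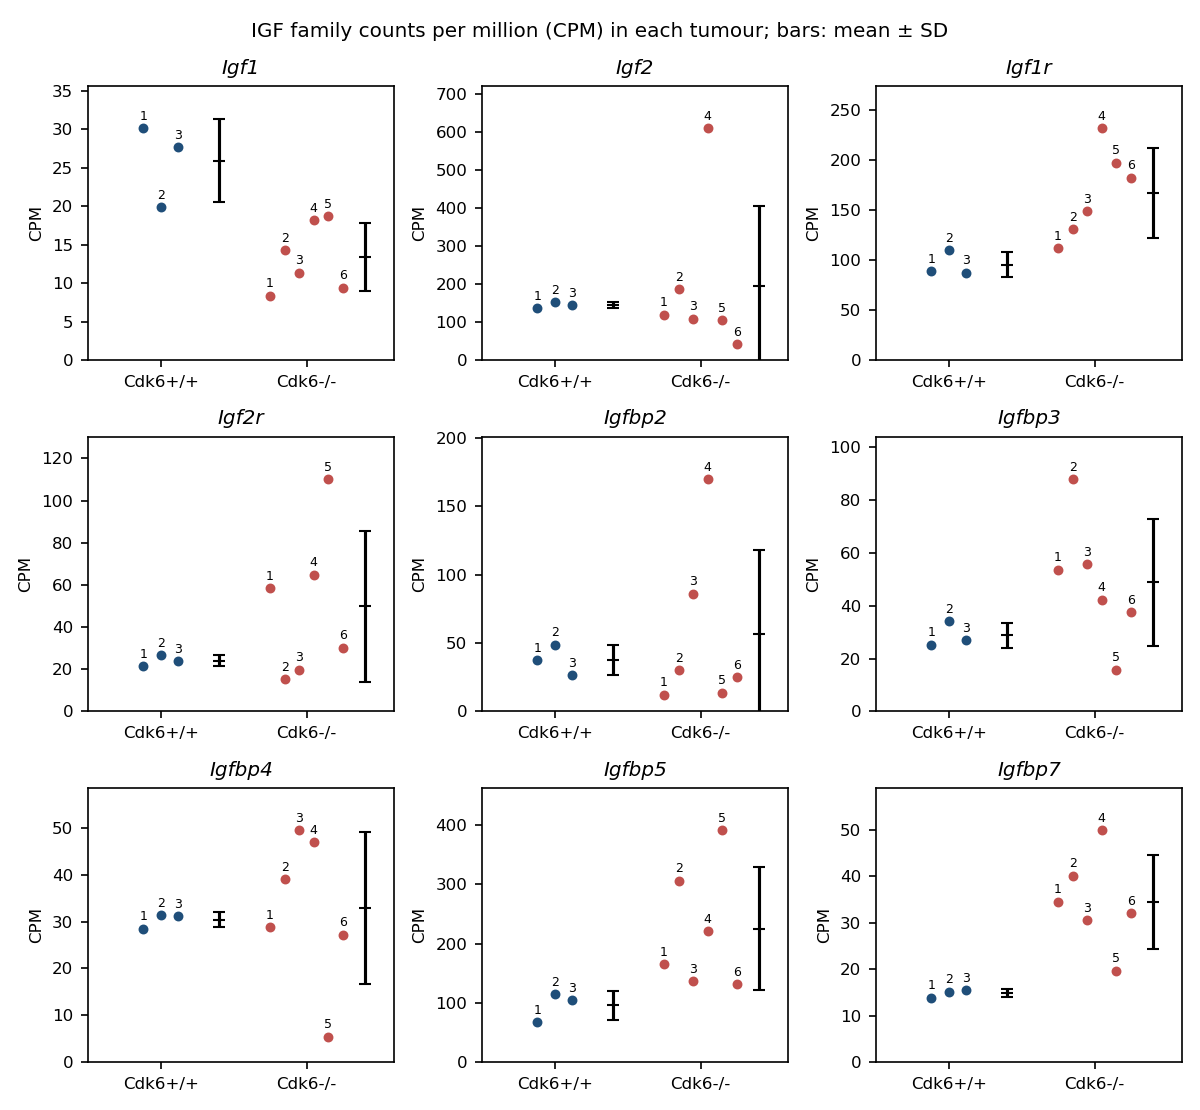
CPM (y axis, from 0) of each of the 9 genes in every tumour, 3 labelled Cdk6+/+ in blue and 6 labelled Cdk6-/- in red, numbered as in the labels, with the group mean ± SD in black (the lower bars of Igf2 and Igfbp2 reach below 0 and are cut by the axis). The groups do not overlap for Igf1, Igf1r, Igfbp5 and Igfbp7, and Cdk6-/- tumour 4 stands far above the rest for Igf2, at 611 CPM.

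Igf1, the ligand induced by growth hormone, was the only member with a negative fold change. The gene lies on the plus strand of chromosome 10 from 87858265 to 87937042 (GRCm38, as are all coordinates here). It was counted at 30.2, 19.8 and 27.6 CPM in Cdk6+/+ tumours 1 to 3 and at 8.40, 14.3, 11.4, 18.2, 18.7 and 9.42 CPM in Cdk6-/- tumours 1 to 6. All 6 Cdk6-/- tumours were below all 3 Cdk6+/+ tumours, but the nearest values, 19.8 and 18.7 CPM, lay close together. The mean was 25.9 ± 5.38 CPM in Cdk6+/+ (SD, n = 3) and 13.4 ± 4.40 CPM in Cdk6-/- (SD, n = 6). The log2 fold change was -0.95 with a standard error (SE) of 0.32, and edgeR's quasi-likelihood test with Benjamini-Hochberg adjustment was not passed (adjusted p = 0.130). Without Cdk6-/- tumours 1 and 5 it was -0.96 (SE 0.27) and passed the same test (adjusted p = 0.0446).

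Microglia and macrophages are a known source of IGF1 in the brain, and their markers were also lower in the Cdk6-/- tumours. All 9 microglia and macrophage markers had counts in every library. They summed to 419 to 482 CPM in the Cdk6+/+ tumours and to 118 to 353 CPM in the Cdk6-/- tumours, without overlap, and 2 of the 9 were called lower. In Cdk6-/- tumours 1, 6, 3, 2 and 4 the marker sums of 157, 270, 308, 331 and 353 CPM stood in the same order as Igf1 at 8.40, 9.42, 11.4, 14.3 and 18.2 CPM. Tumour 5, which like tumour 1 stood apart above, broke this order, with the lowest marker sum, 118 CPM, and the highest Igf1 of its group. The Cdk6+/+ tumours did not follow it either. Tumours 1 to 3 there had marker sums of 482, 442 and 419 CPM and Igf1 at 30.2, 19.8 and 27.6 CPM. The part of these cells in the Igf1 difference was not tested.

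Igf2 had steady levels in the Cdk6+/+ tumours and widely different ones among the Cdk6-/- tumours. This paternally expressed, imprinted gene lies on the minus strand of chromosome 7 from 142650766 to 142666816. Cdk6+/+ tumours 1 to 3 had 137, 153 and 145 CPM, a coefficient of variation (CV) of 5.50%. Cdk6-/- tumours 1 to 6 had 120, 188, 110, 611, 106 and 42.7 CPM, a CV of 106%. Tumour 4 was thus 14.3 times as high as tumour 6, and the Cdk6-/- values lie on both sides of the Cdk6+/+ range. The mean was 145 ± 8.0 CPM in Cdk6+/+ (SD, n = 3) and 196 ± 209 CPM in Cdk6-/- (SD, n = 6). The log2 fold change of 0.43 (SE 0.69) did not pass the test (adjusted p = 0.787 by edgeR), and its sign rests on tumour 4, without which it was -0.35.

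Neighbouring transcripts of the imprinted region were also highest in Cdk6-/- tumour 4. Igf2os, an antisense transcript of the Igf2 locus, was at 19.3 CPM there, at 0.179 to 1.55 CPM in the other 5 Cdk6-/- tumours and at 3.04 to 3.34 CPM in the Cdk6+/+ tumours. H19, the maternally expressed noncoding RNA downstream of Igf2, was at 11.5 CPM there and at 0.707 to 4.76 CPM in the other 5. Igf2 is made in adult brain chiefly by choroid plexus, meninges and vessels. In tumour 4 the choroid plexus list summed to 9.11 CPM, against 8.61 CPM in tumour 6, which had the lowest Igf2, 394 to 1268 CPM in tumours 1, 2, 3 and 5 and 48.7 to 469 CPM in the Cdk6+/+ tumours. The fibroblast and meningeal list summed to 110 CPM in tumour 4, in a group range of 87.6 to 260 CPM. Of the vascular markers in tumour 4, the endothelial list was at 141 CPM, second of the 9 tumours. The pericyte and smooth muscle list was at 280 CPM, the highest, but tumour 6 had 254 CPM of it. Tumour 5 had the highest endothelial sum, 243 CPM, with Igf2 at 106 CPM. The part of these cells in the Igf2 level was not tested. Of the Igf2 exon bases 62.8% are also annotated to Gm49394, a transcript on the same strand, and 1.71% lie opposite exons of Igf2os, so the count does not separate these transcripts fully.

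Igf1r, the signalling receptor, was higher in all 6 Cdk6-/- tumours. The gene is on the plus strand of chromosome 7 from 67952827 to 68233668 and has the longest exon sequence of the family, 16791 bases. Its levels were 88.8, 110 and 87.6 CPM in Cdk6+/+ tumours 1 to 3 and 112, 131, 149, 232, 197 and 182 CPM in Cdk6-/- tumours 1 to 6. The gap between the groups was small, from 110.2 to 111.8 CPM, and it was Cdk6-/- tumour 1 that came closest. The mean was 95.6 ± 12.7 CPM in Cdk6+/+ (SD, n = 3) and 167 ± 44.8 CPM in Cdk6-/- (SD, n = 6). Igf1r differed by 0.81 on the log2 scale (SE 0.28), which did not pass over all libraries (edgeR adjusted p = 0.136). Without tumours 1 and 5 Igf1r rose by 0.86 on the log2 scale (SE 0.23, edgeR adjusted p = 0.0345).

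Igf2r, the clearance receptor, split the Cdk6-/- tumours into high and low. The gene is on the minus strand of chromosome 17 from 12682406 to 12769664 and is expressed from the maternal allele in most mouse tissues. Cdk6+/+ tumours 1 to 3 had 21.5, 26.7 and 24.0 CPM. Cdk6-/- tumours 1, 4 and 5 had 58.5, 64.8 and 110 CPM, and tumours 2, 3 and 6 had 15.2, 19.9 and 30.2 CPM. Tumours 2 and 3 were below the Cdk6+/+ range and the other 4 above it. The Igf2r log2 fold change was 1.05 (SE 0.59, edgeR adjusted p = 0.369), and 0.44 (SE 0.44) without tumours 1 and 5.

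Airn, the noncoding antisense RNA that silences the paternal Igf2r allele in mouse, was high in the same 3 tumours. It begins inside Igf2r on the opposite strand, at 12741311, and was counted at 5.54 to 6.95 CPM in the Cdk6+/+ tumours. In Cdk6-/- tumours 1, 4 and 5 it had 40.9, 45.9 and 23.3 CPM and in tumours 2, 3 and 6 it had 3.94, 6.82 and 5.20 CPM. No annotated exon of Igf2r overlaps one of Airn. The strand setting of the counting is unknown here, and without strand unspliced Airn reads that lie on Igf2r exons would count as Igf2r.

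Igfbp7, a secreted protein abundant in vessel walls, was higher in every Cdk6-/- tumour than in any Cdk6+/+ tumour. It lies on the minus strand of chromosome 5 from 77349240 to 77408041, with an exon length of 1209 bases, of which 7.03% lie opposite exons of Polr2b. Levels were 13.9, 15.2 and 15.5 CPM in Cdk6+/+ tumours 1 to 3 and 34.6, 40.2, 30.7, 50.0, 19.8 and 32.1 CPM in Cdk6-/- tumours 1 to 6. The 3 Cdk6+/+ values were nearly equal, with a CV of 5.72% beside a counting error of 3.60% to 4.09% per library, and all 6 Cdk6-/- values were above them, with tumour 5 the nearest. The mean was 14.9 ± 0.851 CPM in Cdk6+/+ (SD, n = 3) and 34.5 ± 10.1 CPM in Cdk6-/- (SD, n = 6), a ratio of 2.32. On the log2 scale the fold change was 1.22 (SE 0.31) and just passed edgeR's quasi-likelihood test (adjusted p = 0.0474). In 18 alternative settings it stayed between 1.09 and 1.36, and 5 of the 18 kept the call, with adjusted p from 0.00141 to 0.254. With the level of Ddx3y, a Y-linked gene, as a covariate the log2 fold change was 1.17 (SE 0.40) and the call was lost (edgeR adjusted p = 0.254). Cdk6-/- tumour 6, whose Xist level was like that of the Cdk6+/+ tumours, had 32.1 CPM. Cdk6-/- tumour 1, with Ddx3y at 0.160 CPM and Xist at 131 CPM, had 34.6 CPM of Igfbp7. With these tumours the genotype label and the Ddx3y level cannot be fully told apart.

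Vascular markers were compared because vessels express Igfbp7. The 8 endothelial markers summed to 66.2 to 111 CPM in the Cdk6+/+ tumours and to 60.8 to 243 CPM in the Cdk6-/- tumours. The 8 pericyte and smooth muscle markers summed to 110 to 182 CPM and 130 to 280 CPM, and 5 of the 6 Cdk6-/- tumours, all but tumour 3, were above the Cdk6+/+ range. Every marker of both lists had counts in every library, the ranges of the 2 groups overlapped in both lists, and none of the 16 markers was called in either direction. Cdk6-/- tumour 3 had 30.7 CPM of Igfbp7 with 60.8 CPM of endothelial markers, the lowest sum of all 9 tumours. Tumour 5 had the highest endothelial sum and the lowest Igfbp7 of its group. Tumour 4, with the highest Igfbp7 of all, had the highest pericyte and smooth muscle sum and the second endothelial sum. The part of vascular cells in the Igfbp7 difference was not tested.

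Igfbp5, a binding protein that also sits in extracellular matrix, followed the same direction with a wider spread. It is on the minus strand of chromosome 1 from 72857932 to 72874884, next to Igfbp2. Cdk6+/+ tumours 1 to 3 had 67.7, 115 and 105 CPM and Cdk6-/- tumours 1 to 6 had 165, 306, 137, 221, 392 and 132 CPM. All 6 Cdk6-/- tumours were above the Cdk6+/+ tumours, tumours 2 and 5 by the most. The mean was 96.1 ± 25 CPM in Cdk6+/+ (SD, n = 3) and 226 ± 104 CPM in Cdk6-/- (SD, n = 6). Igfbp5 differed by 1.23 on the log2 scale (SE 0.41), which did not pass edgeR's test (adjusted p = 0.126), while DESeq2 gave 1.24 (SE 0.44, adjusted p = 0.0422). With the level of Ddx3y as a covariate the Igfbp5 log2 fold change was only 0.50 (SE 0.43, edgeR adjusted p = 0.718). DESeq2 called 2 of the 9 genes, Igfbp5 and Igfbp7, and 12.6% of all tested genes.

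The upstream sequences of the 3 genes that were higher in every Cdk6-/- tumour are shown because these groups did not overlap, although only Igfbp7 passed the test. Each is the 250 bases before the RefSeq start site (GRCm38.p6), 5′ to 3′ on the gene's strand, and capitals mark the GC box GGGCGG or its reverse complement, the motif of the factor Sp1. The windows are chr5:77408046-77408295 on the minus strand for Igfbp7, chr1:72874866-72875115 on the minus strand for Igfbp5 and chr7:67952007-67952256 on the plus strand for Igf1r.
Igfbp7: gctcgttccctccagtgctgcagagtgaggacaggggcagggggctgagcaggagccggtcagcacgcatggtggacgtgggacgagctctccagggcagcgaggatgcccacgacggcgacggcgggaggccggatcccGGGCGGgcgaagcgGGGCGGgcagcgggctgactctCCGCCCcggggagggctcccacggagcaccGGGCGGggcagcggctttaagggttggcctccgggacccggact
Igfbp5: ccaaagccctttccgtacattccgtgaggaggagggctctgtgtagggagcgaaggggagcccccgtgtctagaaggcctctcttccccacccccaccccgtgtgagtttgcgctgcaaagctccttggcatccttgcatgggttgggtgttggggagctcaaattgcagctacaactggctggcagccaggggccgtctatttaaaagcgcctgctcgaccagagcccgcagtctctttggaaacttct
Igf1r: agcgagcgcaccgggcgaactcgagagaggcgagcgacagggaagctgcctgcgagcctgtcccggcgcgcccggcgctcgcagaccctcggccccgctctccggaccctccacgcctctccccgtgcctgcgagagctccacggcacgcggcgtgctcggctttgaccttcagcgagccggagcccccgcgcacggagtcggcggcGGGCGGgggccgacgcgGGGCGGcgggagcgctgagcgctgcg

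The Igfbp7 window holds 4 GC boxes and that of Igf1r 2, while the Igfbp5 window holds none. GC boxes were not particular to the genes that were higher. Igf2r and Igfbp2, whose groups overlapped, had a window with 3 each, and Igf2 had windows with up to 2. The windows of Igf1, Igfbp3 and Igfbp4 held none. Over all 32851 windows of this length in the RefSeq table, 32.7% hold at least 1. The 3 printed windows had GC contents of 74.0%, 58.8% and 77.6% for Igfbp7, Igfbp5 and Igf1r, against a median of 52.4% over all windows. In members whose groups overlapped, GC content ran from 47.6% in a window of Igf2 to 73.2% in that of Igfbp3. A further 3 motifs were searched on both strands, none overlapping a GC box here. GACCACCCA, the consensus of the Hedgehog effector GLI, was in none of the 13 windows of the 9 genes and in 0.225% of all windows. TTTNNCGC, a form of the E2F site, was also in none of the 13 and in 4.28% of all. TATAAA was in 1 of the 13, that of Igfbp4, and in 12.4% of all. For motifs as rare as those of GLI and E2F, no match in 13 windows is a likely outcome and carries little weight. The Igf1 window and a window of Igf2 also lie with all 250 bases in annotated exons. These matches describe letters only and say nothing of binding.

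Igfbp2 varied the most of all members relative to its mean. It is on the plus strand of chromosome 1 from 72824503 to 72852474. Cdk6+/+ tumours 1 to 3 had 37.6, 48.8 and 26.8 CPM and Cdk6-/- tumours 1 to 6 had 12.2, 30.4, 86.1, 170, 13.8 and 25.2 CPM. Tumours 3 and 4 were above the Cdk6+/+ range, tumours 1, 5 and 6 below it, and the CV was 110% in Cdk6-/- against 29.2% in Cdk6+/+. Igfbp2 had a log2 fold change of 0.58 (SE 0.80, edgeR adjusted p = 0.750). Tumour 4 was the highest of all 9 for Igf2 and Igfbp2 alike, but tumour 3, second for Igfbp2, was below the Cdk6+/+ range for Igf2.

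Igfbp3, the main IGF carrier of the blood, was above the Cdk6+/+ tumours in 5 of 6 Cdk6-/- tumours. It is on the minus strand of chromosome 11 from 7206086 to 7213923. Levels were 25.3, 34.3 and 27.0 CPM in Cdk6+/+ tumours 1 to 3 and 53.8, 88.1, 55.8, 42.4, 15.8 and 37.6 CPM in Cdk6-/- tumours 1 to 6. Tumour 5 alone was below the Cdk6+/+ range. For Igfbp3 the log2 fold change was 0.76 (SE 0.44, edgeR adjusted p = 0.386), and without tumours 1 and 5 it was 0.96 (SE 0.30, edgeR adjusted p = 0.0612).

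Igfbp4, a binding protein that mainly inhibits IGF action, was the member with the smallest fold change. It is on the plus strand of chromosome 11 from 99041244 to 99054392. Cdk6+/+ tumours 1 to 3 had 28.5, 31.4 and 31.2 CPM and Cdk6-/- tumours 1 to 6 had 28.8, 39.1, 49.5, 46.9, 5.48 and 27.2 CPM. Tumour 5 was far below all others, and tumours 2, 3 and 4 were above the Cdk6+/+ range. The Igfbp4 log2 fold change was 0.11 (SE 0.52, edgeR adjusted p = 0.931). Leaving out tumours 1 and 5 gave 0.43 (SE 0.23, edgeR adjusted p = 0.232).

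**Figure D2:**
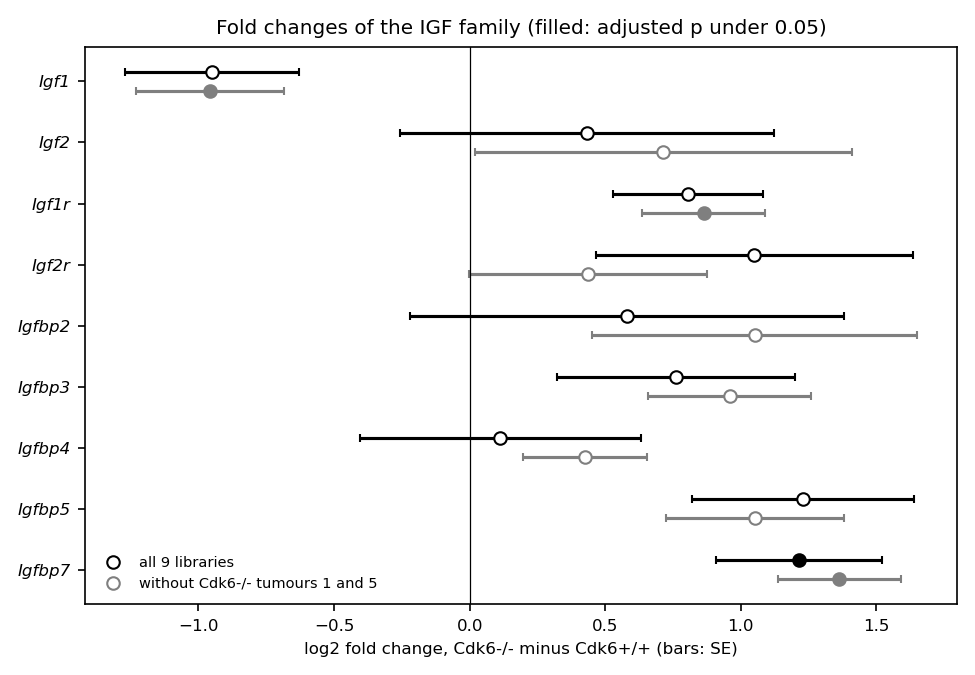
Log2 fold changes (x axis, Cdk6-/- minus Cdk6+/+, bars SE) of the 9 genes (y axis) from edgeR with all 9 libraries in black and without Cdk6-/- tumours 1 and 5 in grey, filled where the adjusted p over all genes was under 0.05. Igfbp7 is filled in both, and Igf1 and Igf1r are filled only without the 2 tumours.

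Without Cdk6-/- tumours 1 and 5, a comparison of 3 with 4 tumours, 3 of the 9 genes were called: Igfbp7 rose by 1.36 on the log2 scale (SE 0.23, edgeR adjusted p = 0.00553), Igf1r rose and Igf1 fell. In the same comparison 14.3% of all tested genes were called. Groups did not overlap in 5 of the 9, the same 4 and Igfbp3, and in 29.3% of all tested genes. Fold changes of the 9 had a median of 0.86 there, and those of all tested genes 0.04.

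Spread within the Cdk6-/- group was larger than within the Cdk6+/+ group for all 9 genes by CV, as it was for 91.2% of all tested genes. Cdk6-/- tumour 4 had the highest level of 4 of the 9, namely Igf2, Igf1r, Igfbp2 and Igfbp7, and the lowest of none. Tumour 5 was highest for Igf2r and Igfbp5 and lowest for Igfbp3 and Igfbp4. Cdk6+/+ tumour 1 was highest for Igf1 and lowest for Igfbp5 and Igfbp7.

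**Figure D3:**
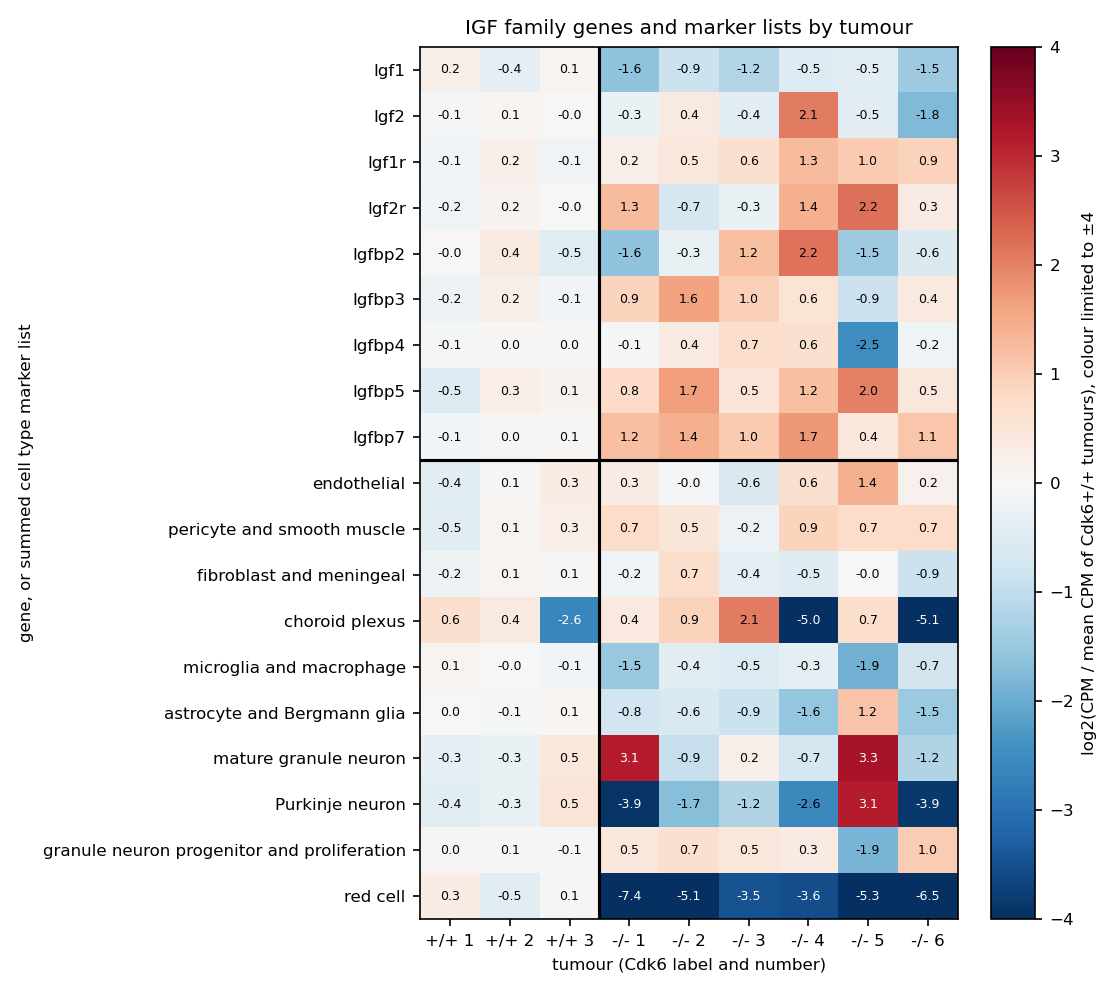
Log2 of the CPM over the mean CPM of the 3 Cdk6+/+ tumours (printed number, and colour within the limits of the colour bar) for the 9 genes, above the line, and for the summed CPM of 10 cell type marker lists, below it, in each tumour (columns). Igfbp7 is positive in all 6 Cdk6-/- tumours and Igf1 negative in all 6, and the microglia and red cell lists are negative in all 6 as well.

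To compare members with each other, CPM were divided by exon length in kilobases. This length joins the exons of all annotated transcripts, so it understates genes with long rarely used exons. In the Cdk6+/+ tumours Igf2 came first at 25.4 ± 1.40 CPM per kilobase (SD, n = 3), followed by Igfbp2 (20.4 ± 5.96), Igfbp5 (16.0 ± 4.17) and Igfbp7 (12.3 ± 0.704), each overlapping the next in range. Igfbp3 (9.22 ± 1.53) and Igfbp4 (6.87 ± 0.364) were lower, without overlap between Igfbp7, Igfbp3 and Igfbp4 as neighbours. Igf1r (5.69 ± 0.759) overlapped Igfbp4 in range, and Igf1 (2.61 ± 0.544) and Igf2r (2.55 ± 0.277) were last and overlapped each other.

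In the Cdk6-/- tumours Igfbp5 had the highest mean, 37.6 ± 17.4 CPM per kilobase (SD, n = 6), ahead of Igf2 at 34.3 ± 36.4, Igfbp2 at 30.5 ± 33.6 and Igfbp7 at 28.6 ± 8.36. Igfbp3 followed at 15.6 ± 7.66, Igf1r at 9.95 ± 2.67, Igfbp4 at 7.43 ± 3.67, Igf2r at 5.28 ± 3.80 and Igf1 at 1.35 ± 0.444. All 8 pairs of neighbours in this order overlapped in range. Igf2 was 7.89 to 13.4 times as high as Igf1 per kilobase in the Cdk6+/+ tumours and 7.84 to 58.2 times in the Cdk6-/- tumours. Igf1r was 2.05 to 2.32 times as high as Igf2r in Cdk6+/+ tumours, and in Cdk6-/- tumours the ratio ran from 1.00 in tumour 5 to 4.82 in tumour 2.

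**Figure D4:**
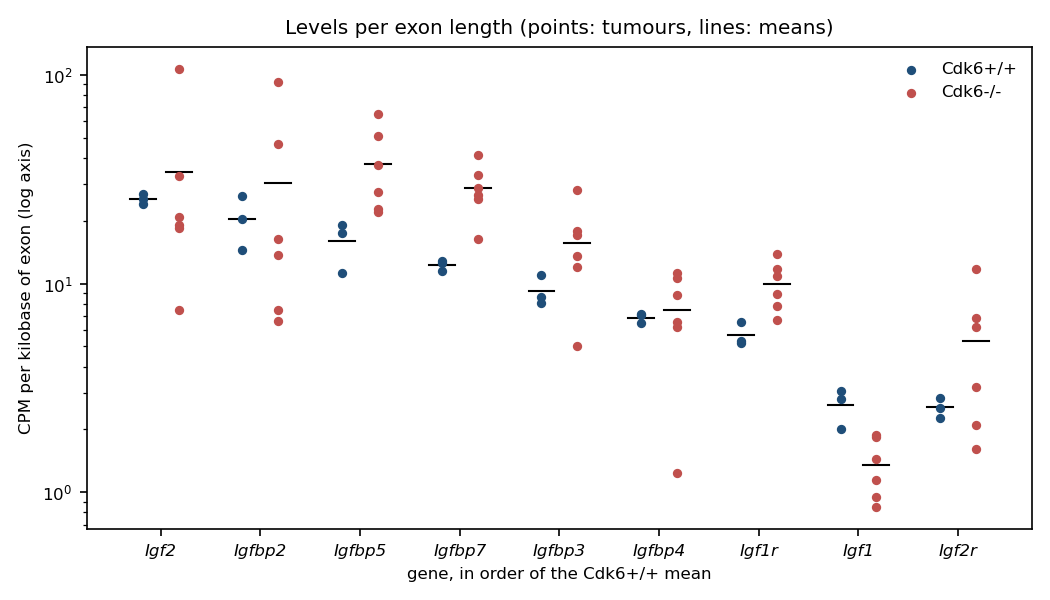
CPM per kilobase of exon (y axis, log scale) of the 9 genes (x axis, ordered by the Cdk6+/+ mean), with a point per tumour and a line at the group mean. Igf2 leads in the Cdk6+/+ tumours and Igfbp5 in the Cdk6-/- tumours, and Igf1 and Igf2r have the lowest means in both groups.

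Transcripts of the 5 binding proteins were also summed, as a description with no test. Their sum was 57.7, 76.3 and 60.5 CPM per kilobase in Cdk6+/+ tumours 1 to 3 and 86.4, 138, 124, 194, 95.3 and 80.4 in Cdk6-/- tumours 1 to 6, without overlap. The leading binding protein differed between tumours. Igfbp2 led in Cdk6+/+ tumours 1 and 2 and Igfbp5 in tumour 3. Among Cdk6-/- tumours Igfbp7 led in tumours 1 and 6, Igfbp5 in 2 and 5 and Igfbp2 in 3 and 4. In tumour 5 Igfbp5 alone made up 68.4% of the sum, against 18.4% to 37.0% in the other 5 Cdk6-/- tumours.

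**Figure D5:**
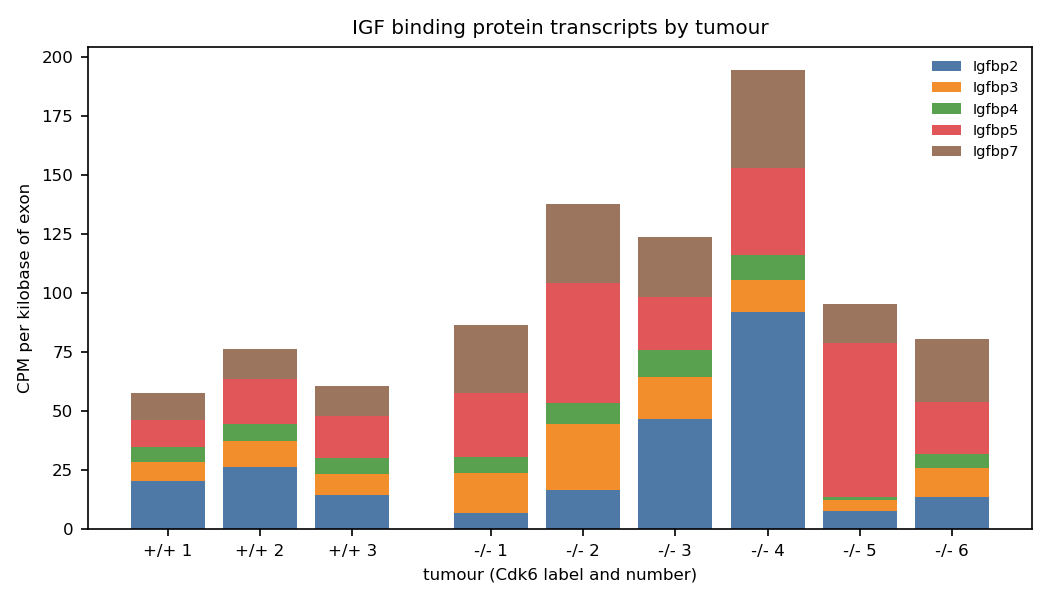
Stacked CPM per kilobase of exon (y axis) of the 5 binding proteins in each tumour (x axis). The sums are 57.7 to 76.3 in the Cdk6+/+ tumours and 80.4 to 194 in the Cdk6-/- tumours, and Igfbp5 makes up most of the bar of Cdk6-/- tumour 5.

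Around the family, 4 lists cover the rest of the IGF system and the signalling from IGF1R. They held 69 tested genes, of which 1 was called, 1.45% beside the 5.19% of all tested genes. Groups did not overlap in 5 of the 69, 7.25% beside the 15.5% of all tested genes. Among 11 tested genes of the IGF system other than the 9, none was called, the median log2 fold change was 0.24, and 4 more (Igfbp1, Igfals, Insrr and Pappa2) were too low to test. Insr, the insulin receptor, had the smallest p, at 84.5 to 97.5 CPM in Cdk6+/+ and 97.3 to 162 CPM in Cdk6-/- tumours (log2 fold change 0.50, SE 0.22, edgeR adjusted p = 0.249). Airn, described above, had 1.75 (SE 0.83, edgeR adjusted p = 0.283).

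Pappa, which encodes the protease that cleaves IGFBP4 and IGFBP5 and releases IGF, was high in the same 2 tumours that had high granule neuron markers. It was at 174 and 37.1 CPM in Cdk6-/- tumours 1 and 5, at 1.39 to 3.61 CPM in the other 4 and at 2.46 to 2.90 CPM in Cdk6+/+ tumours. The log2 fold change of 3.76 (SE 1.72, edgeR adjusted p = 0.264) became -0.16 without those 2 tumours. Tumour 1, with the highest Pappa, had 28.8 CPM of Igfbp4 and 165 CPM of Igfbp5, both within the range of the other Cdk6-/- tumours. Tumour 5 instead had the lowest Igfbp4 of its group, 5.48 CPM, and the highest Igfbp5, 392 CPM. RNA counts do not measure cleavage of the proteins, and a link of these levels to Pappa was not tested.

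Of 14 tested adaptors and feedback regulators of the receptor none was called, with a median of 0.17. Irs2, an insulin receptor substrate, was at 39.7 to 48.3 CPM in the Cdk6+/+ tumours and at 50.1 to 126 CPM in the Cdk6-/- tumours, without overlap (log2 fold change 0.66, SE 0.33, edgeR adjusted p = 0.310). Socs2, a feedback inhibitor of growth hormone signalling, had 0.92 (SE 0.77), a value that rests on Cdk6-/- tumour 4, at 305 CPM against 14.8 to 84.2 CPM in the other 5, without which it was 0.039. Grb10, an imprinted adaptor that dampens insulin and IGF receptor signalling, was at 28.1 to 41.8 CPM in Cdk6+/+ tumours. In the Cdk6-/- group tumours 1 and 5 had 35.2 and 58.6 CPM, and the other 4 had 4.80 to 11.0 CPM. Over all libraries its log2 fold change was -0.80 (SE 0.73, edgeR adjusted p = 0.603), and without tumours 1 and 5 it fell by 2.23 (SE 0.29, edgeR adjusted p = 0.00209), as 1 of 2 genes of the 4 lists that were called there.

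In the PI3K, AKT and mTOR list 1 of 29 tested genes was called, and the median was 0.21. This was Rps6, the ribosomal protein phosphorylated by the S6 kinases, at 479 to 633 CPM in Cdk6+/+ and 59.3 to 222 CPM in Cdk6-/- tumours. It fell by 1.68 on the log2 scale (SE 0.36, edgeR adjusted p = 0.0272), and by 1.44 without tumours 1 and 5 (adjusted p = 0.00130). However, 43.8% of its 50-base sequences also occur in other annotated genes, mainly pseudogenes such as Rps6-ps4, so its count is uncertain. Tsc1, an inhibitor of mTOR complex activity, did not overlap between groups, with 68.9 to 76.7 CPM and 86.9 to 146 CPM (log2 fold change 0.61, SE 0.23, edgeR adjusted p = 0.173), and Pik3cd, a catalytic PI3K subunit, had 0.85 (SE 0.33, edgeR adjusted p = 0.200).

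None of the 15 RAS and ERK genes was called, with a median of 0.26. Braf, a RAF kinase, had a log2 fold change of 0.94 (SE 0.39, edgeR adjusted p = 0.213). The ERK feedback inhibitors Spry4 and Spry2 had 0.65 (SE 0.28) and 0.68 (SE 0.31), and Spry2 did not overlap between groups. Over all tested genes the median was 0.16.

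Genes whose levels followed a member most closely over the 9 tumours were sought among 13308 named genes whose mean was 1 CPM or more. Likeness was the SD over tumours of the difference in log2 CPM between gene and member, a smaller SD meaning a steadier ratio. Closest to Igfbp7 were Elk4 (SD 0.20), Mb21d2 (0.23) and Ebf1 (0.27), where Igfbp7 itself had an SD of 0.68. Nfe2l1 (0.14), Rere (0.17) and Zmynd8 (0.19) were closest to Igf1r, whose own SD was 0.50. For Igf1 they were Pcbd2 (0.22), S100a13 (0.26) and Glrx (0.26), and for Igfbp5 Sh3pxd2a (0.30), Dcst1 (0.35) and Mylk (0.36).

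Igfbp4 was tracked by Snhg5 (0.17), Bora (0.20) and Tnfrsf22 (0.23), beside an own SD of 0.93. Igfbp3 had Phlda1 (0.28), Pfkfb1 (0.28) and Zfp948 (0.30). The 3 members with the largest CV among Cdk6-/- tumours, Igf2, Igf2r and Igfbp2, had the largest SDs to their closest genes. Their own SDs of 1.00, 0.94 and 1.20 were also the largest, so this does not by itself show poorer tracking. Closest to Igf2 was Cdkn1c (0.50), another imprinted gene of the same region of chromosome 7, which encodes a CDK inhibitor, then Pter (0.54) and Casc1 (0.56). Cdkn1c was at 32.1 CPM in Cdk6-/- tumour 4, at 3.90 to 7.98 CPM in the other 5 and at 7.81 to 11.2 CPM in the Cdk6+/+ tumours. Igf2r had Tgfb3 (0.34), She (0.36) and Sgpp2 (0.36), and Igfbp2 had Tcirg1 (0.42), Six5 (0.42) and Igdcc3 (0.44). Between members the steadiest ratio was that of Igf1r to Igfbp7, with an SD of 0.52. This was no smaller than the own SD of Igf1r, 0.50, and below that of Igfbp7, 0.68.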

How the data were processed

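Per the labels' protocols, total RNA (1 µg) was extracted with Trizol from flash-frozen tumours, made into Illumina TruSeq libraries and read as 50-base single ends. GRCm38.p6 as build and HISAT2, Trimmomatic, FastQC and DESeq2 as tools are listed in the submitters' processing notes. Not given in the sources used here are the counting tool, its strand setting and the annotation. The authors deposited raw counts per gene with an exon length, and a DESeq2 table of log2 fold changes, test statistics (score) and p-values, in which only genes at an adjusted p under 0.05 are listed and which was used only to look up the genes.

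Counts of all 9 tumours were fitted by genotype with edgeR 4.0.16 (R 4.3.3; filterByExpr, TMM scaling, robust quasi-likelihood test), with p adjusted by Benjamini-Hochberg over all 18356 tested genes at a threshold of 0.05. Alternatives used DESeq2 1.42.0, limma-voom (limma 3.58.1), other scaling and filters, a replicate block, Ddx3y as covariate, and subsets without single tumours or without Cdk6-/- tumours 1 and 5. The fit was tested on simulated counts. By rule, named genes are the 9, the 3 smallest p of each signalling list with any called gene, the 3 genes most like each member, Cdk6 and the leading cell type markers. Igf2os, H19, Igfbpl1, Htra1, Atoh1, Mki67, Xist and Ddx3y were named outside this rule, after their values were seen. Members, lists and alternatives were chosen with earlier results of these data known. Upstream sequences are from RefSeq (GRCm38.p6), where all 9 genes matched by symbol. Only windows with at most 30 bases in annotated exons are printed. A marker list of another cell type is not reported here.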

Additional observations from a re-analysis of the deposited data

Results flagged for a closer look

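Igf2 in Cdk6-/- tumour 4 was at 611 CPM, and its gap to the nearest of the other 5 was 0.745 of the range of the group, above Dixon's 95% critical value for 6 samples. This holds on the CPM scale only. On log2 CPM, a scale tried after seeing the data, the ratio was 0.443, below that value, while Igfbp4 in Cdk6-/- tumour 5, the lowest of its group at 5.48 CPM, had a ratio of 0.728, above it. The 9 genes were each tested in this way in the Cdk6-/- group, and chance marks about 1 in 20 groups. The Cdk6+/+ group, with 3 tumours, was too small for it. Without tumour 4 the log2 fold change of Igf2 was -0.35 in place of 0.43. Igf2os, H19 and Cdkn1c, of the same region, were also highest in this tumour, at 19.3, 11.5 and 32.1 CPM. Cdkn1c was found by its likeness to Igf2 over these same tumours, and Igf2os and H19 were named after their values were seen. Their levels are thus no separate support for the Igf2 value.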

How the results depend on the processing

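Of 162 pairs of a member and an alternative setting, 135 kept the sign and the side of the threshold, 13 kept the sign but lost the call, 3 gained it and 11 changed sign. The call of Igfbp7 was narrow: its adjusted p was 0.0707 with library totals, 0.0828 without a filter, 0.0623 with at least 1 CPM in 3 libraries, 0.254 with Ddx3y as covariate and 0.00895 to 0.223 with 1 tumour left out, where only leaving out Cdk6-/- tumour 5 kept the call. The 953 genes called over all libraries became 2309 with DESeq2, 563 with at least 1 CPM in 3 libraries, 2643 without Cdk6-/- tumours 1 and 5, 66 with Ddx3y as covariate and 207 to 1506 with 1 tumour left out, the extremes being Cdk6+/+ tumour 3 and Cdk6-/- tumour 5. Leaving out Cdk6+/+ tumour 1 or 2 or Cdk6-/- tumour 3 gave 221, 400 and 525. Members called, 1 over all libraries, were 2 with DESeq2, 3 without tumours 1 and 5, 0 with library totals, without a filter, with at least 1 CPM and with Ddx3y, and 0 to 1 with 1 tumour left out. Signalling genes called, 1, were 2 with DESeq2 and without tumours 1 and 5, 0 with Ddx3y and 0 to 1 with 1 tumour left out. Log2 fold changes of Igf2 turned to -0.076 with limma-voom and -1.02 with Ddx3y, and ran from -0.35 to 0.64 with 1 tumour left out. Those of Igfbp2 turned to -0.92 with Ddx3y and ran from -0.16 to 0.79, and those of Igfbp4 turned to -0.12 with limma-voom and -0.066 with Ddx3y and ran from -0.058 to 0.34. Pappa turned to -0.16 without tumours 1 and 5 and Socs2 to -0.0048 with Ddx3y. The cause was not tested.

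Same-numbered tumours of the groups did not deviate together (correlations over genes of 0.0665, -0.238 and -0.345). Pairs with different numbers ran from -0.419 to 0.333, so these values cannot tell whether a number marks a shared litter or day. With the replicate block 822 genes, 0 members and 1 signalling gene were called, and Igfbp7 had an adjusted p of 0.0784. Igf2 and Igfbp2 had log2 fold changes of -0.10 and -0.25 there. A Cdk6-/- tumour whose number no Cdk6+/+ tumour shares forms a block alone and adds nothing to these fold changes. Cdk6-/- tumour 4, the highest for Igf2 and Igfbp2, is such a tumour. Leaving out that tumour without a block also gave negative values, -0.35 and -0.16. The negative signs with the block therefore do not separate pairing from the loss of that tumour.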

Other observations

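Igfbpl1, a gene of granule neuron progenitors with an IGF-binding domain, was at 377 to 491 CPM in the Cdk6+/+ tumours and at 117 to 655 CPM in 5 Cdk6-/- tumours, but at 0.221 CPM in Cdk6-/- tumour 5. In that tumour Atoh1, the progenitor transcription factor whose promoter drove Cre, was at 0.0442 CPM, and the proliferation marker Mki67 at 0.398 CPM, against 822 to 1056 CPM in the other 5. Igf2r and Igfbp5 were highest and Igfbp3 and Igfbp4 lowest in that same tumour, which also had the highest sums of Purkinje neuron and of astrocyte and Bergmann glia markers, 8943 and 5941 CPM. Htra1, a secreted protease, was at 195 CPM there and at 6.59 to 28.8 CPM in the other 5.

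Among the other cell type markers, the 8 of astrocytes and Bergmann glia (led by Slc1a3 and Aqp4) summed to 2543 to 2799 CPM in the Cdk6+/+ and 910 to 5941 CPM in the Cdk6-/- tumours, with 1 called lower. Without tumour 5 the Cdk6-/- sums were 910 to 1758 CPM, all below the Cdk6+/+ range. The 6 of Purkinje neurons (Itpr1, Car8) summed to 755.3 to 1462 and 67.7 to 8943 CPM, none called, and without tumour 5 the Cdk6-/- sums were 67.7 to 439 CPM, also all below the Cdk6+/+ range. Of 5 red cell genes (Hbb-bs, Hbb-bt) 3 were lower, with sums of 65.9 to 111 and 0.535 to 8.0 CPM. The part of these cells in the values of the IGF genes was not tested.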
